A study of Homo sapiens with 2 samples.

Results

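The BCL2 family decides whether a cell opens the outer membrane of its mitochondria and dies by apoptosis, and 10 of its genes are described here in TCam-2, an established human line of testicular seminoma cells. The 10 genes, out of 62700 in the gene table, were chosen by symbol and matched to Ensembl identifiers. They are 3 guardians of survival (BCL2, BCL2L1 and MCL1), 3 effectors (BAX, BAK1 and BOK) and 4 BH3-only genes (BID, BAD, BCL2L11 and BIK). Their levels were followed in the reads per gene, and their long and short forms in the transcripts of each gene.

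The study transduced TCam-2 cells with FLAG-tagged DDX53, a gene for a DEAD-box RNA helicase, to find genes whose expression or splicing changes with it. The series holds 1 group of 2 polyadenylated RNA libraries of cells labelled as overexpressing DDX53, called replicate 1 and replicate 2. The controls that the design names, cells carrying FLAG-tagged GFP and untransduced cells, were not analysed here, so no effect of DDX53 was computed. The promoter of the construct, and whether the cells were a clone or a pool, are not given in the sources used here.

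Guardians bind and hold back the effectors and the BH3-only proteins. BH3-only proteins carry stress signals to the family, either by occupying the guardians or by activating the effectors directly. Once active, BAX and BAK1 assemble into pores that let cytochrome c out of the mitochondria. Several members are made in long and short forms by alternative splicing, and a short form can act against the long form of the same gene. Seminomas are known for their sensitivity to drugs that damage DNA.

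The libraries held 24137664 reads in genes in replicate 1 and 22198929 in replicate 2. DDX53 itself received 146 and 147 reads, or 6.05 and 6.62 reads per 1000000 reads in genes (CPM). At 1.97 and 2.13 transcripts per 1000000 (TPM) it was above 16.3% of detected genes, and without control libraries this level does not show whether it was raised as labelled. All 8 markers of seminoma and germ cells were at 1 CPM or more in both libraries, with a summed level of 4650 CPM in replicate 1 and 4611 CPM in replicate 2. Of 5 blood cell markers 0 reached 1 CPM and 3 had no read, and their summed level was 0.0829 and 0.0450 CPM. Of 5 markers of testis somatic cells 2 reached 1 CPM in both (AMH and SOX9, summed over the list 14.0 and 10.6 CPM), as did 2 of 3 endothelial markers (CDH5 and VWF, summed 5.39 and 7.75 CPM). Of 3 embryonal carcinoma markers 2 reached it (summed 133 and 106 CPM), and of 3 markers of later germ cells 0 did (0.290 and 0.180 CPM). Nothing in the labels says that the replicates came from separate cultures, so the spread between them may be technical.

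The long and short forms are set out by their sequence before the levels, because 1 splice choice separates each pair. The sequences are from GENCODE 29 transcripts on GRCh38, printed 5′ to 3′ on the strand of the gene. In each 30-base line the lower-case letters are the end of the upstream piece and the capitals are what follows it, so that lines of 1 gene with the same lower case show the alternative. The pair for BCL2L1 shows BCL-XL (BCL2L1-201) running into the segment and BCL-XS (BCL2L1-202) joining past it to the next exon.
BCL2L1-201: cagagctttgaacagGTAGTGAATGAACTC
BCL2L1-202: cagagctttgaacagGATACTTTTGTGGAA
The lines for MCL1 show MCL-1L (MCL1-202) entering exon 2, MCL-1S (MCL1-201) joining exon 1 to exon 3, and MCL-1ES (MCL1-204) joining within exon 1.
MCL1-202: agacggccttccaagGCATGCTTCGGAAAC
MCL1-201: agacggccttccaagGATGGGTTTGTGGAG
MCL1-204: ggagggcgacttttgGCCACCGGCGCCAAG
The first pair for BAX shows BAX alpha (BAX-202) entering exon 3 and BAX delta (BAX-203) passing over it. The other pair shows BAX beta (BAX-201) reading into intron 5 and BAX alpha (BAX-202) splicing it out.
BAX-202 into exon 3: ccttttgcttcagggTTTCATCCAGGATCG
BAX-203 over exon 3: ccttttgcttcagggGATGATTGCCGCCGT
BAX-201 into intron 5: gaccagggtggttggGTGAGACTCCTCAAG
BAX-202 over intron 5: gaccagggtggttggGACGGCCTCCTCTCC
The pair for BCL2L11 shows BIM-EL (BCL2L11-206) reading into the stretch that only it keeps and BIM-L (BCL2L11-201) splicing that stretch out.
BCL2L11-206: agacagagccacaagGTAATCCTGAAGGCA
BCL2L11-201: agacagagccacaagACAGGAGCCCAGCAC

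At 1 CPM or more in both libraries, 8 of the 10 members were detected. That threshold was met by 21.7% of all genes in the table and by 61.7% of the 19831 protein-coding genes of GENCODE 29. The members below it were BCL2 and BIK. The founding gene of the family was thus among the lowest, while its relatives BCL2L1 and MCL1 were well above the threshold.

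**Figure D1:**
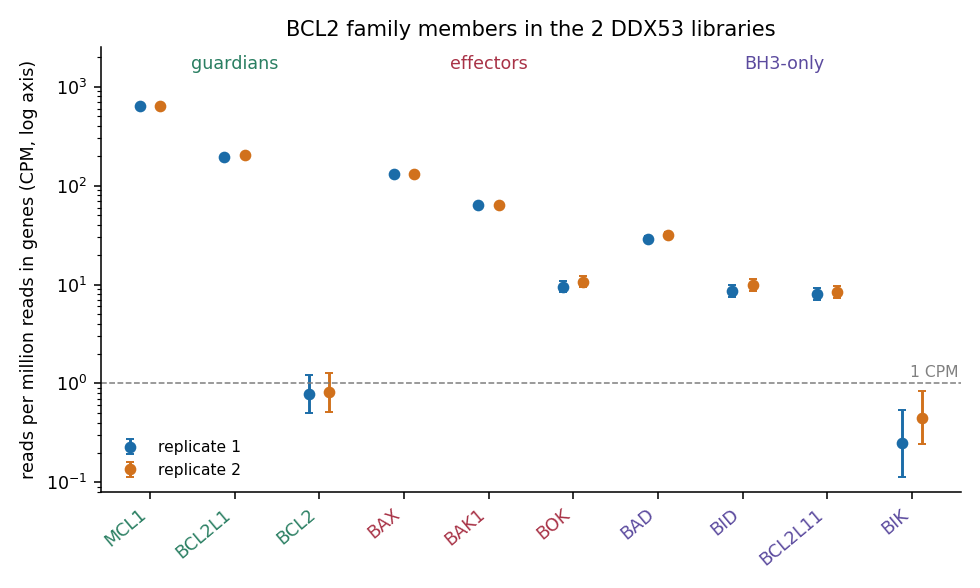
Level of each member in replicate 1 (blue) and replicate 2 (orange), in CPM on a log axis, with 95% Wilson intervals for counting error as bars and 1 CPM as a dashed line. The points of a pair lie close together except for BIK, at 0.249 and 0.450 CPM. MCL1 is at 639 and 639.9 CPM, and BCL2 and BIK are the 2 members under the line.

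Of the guardians, MCL1 lies on the minus strand of chromosome 1 (GRCh38, chr1:150574551-150579738) and encodes a short-lived protein that holds BAK1 and BCL2L11. It received 15434 reads in replicate 1 and 14204 in replicate 2, or 639 and 639.9 CPM. The levels of the libraries differed by under 1 CPM. BCL2L1 (chr20:31664452-31723989, minus strand) encodes BCL-XL, which holds BAX, BAK1 and BAD. Its reads numbered 4737 and 4557. The level was 196 CPM (95% Wilson interval, 191 to 202) against 205 CPM (199 to 211) in replicate 2, and these intervals overlap.

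BCL2 (chr18:63123346-63320128, minus strand), the gene first found at a chromosome break in follicular lymphoma, received 19 reads in replicate 1 and 18 in replicate 2. Its level was 0.787 CPM (95% Wilson interval, 0.504 to 1.23) and 0.811 CPM (0.513 to 1.28). Both libraries were above the 3 reads that a count of 0 allows, equal to 0.124 CPM and 0.135 CPM. Both intervals reach past 1 CPM, so this depth does not place BCL2 firmly below the threshold. These intervals cover counting error only.

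Among the effectors, BAX (chr19:48954815-48961798, plus strand), whose protein moves from the cytosol to the mitochondria, received 3129 and 2913 reads, or 129.6 and 131 CPM. BAK1 (chr6:33572547-33580293, minus strand), whose protein sits in the mitochondrial membrane, received 1547 and 1412 reads, or 64.1 and 63.6 CPM. Its processed copies took few reads of their own, 4 and 2 for BAK1P1 and 0 in both libraries for BAK1P2. BOK (chr2:241551424-241574138, plus strand), an effector whose restraint by guardians is not settled, received 229 and 238 reads, or 9.49 and 10.7 CPM. All 3 effectors were therefore detected in both libraries.

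Among the BH3-only genes, BAD (chr11:64269830-64284704, minus strand), whose protein is switched off by survival kinases, received 698 and 701 reads, or 28.9 and 31.6 CPM. BID (chr22:17734138-17774770, minus strand), which caspase 8 cuts to link death receptors to mitochondria, received 208 and 219 reads, or 8.62 and 9.87 CPM. BCL2L11 (chr2:111119378-111168447, plus strand), which encodes BIM, a binder of all guardians, received 193 and 186 reads, or 8.0 and 8.38 CPM. BIK (chr22:43110748-43129712, plus strand), whose protein resides at the endoplasmic reticulum, had the fewest, 6 and 10 reads. Its level was 0.249 CPM (95% Wilson interval, 0.114 to 0.542) against 0.450 CPM (0.245 to 0.829) in replicate 2. Both intervals for BIK lie under 1 CPM and overlap each other.

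Exons of other genes on the same strand covered less than 0.1% of the merged exons of each member. On the opposite strand the overlap was 43.0% for BCL2L1, 23.7% for BAD, 10.9% for BCL2L11, 7.41% for BOK and 4.11% for BAK1. The library kit marks strand, but whether the counting used it is not given in the sources used here, so reads of antisense partners may be included in those 5 genes.

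Counting noise alone was the yardstick for the difference between the 2 libraries, in edgeR's exact binomial test, two-sided, with Benjamini-Hochberg adjustment over 15299 genes. The test compares 2 libraries and no conditions. It calls smaller differences in genes with more reads, and the shares over all genes given beside each list are not matched for depth. Of the 10 members 9 entered it, since BIK had too few reads, and 0 were called at an adjusted p under 0.05, against 13.1% of all genes tested, of which 6.49% were higher and 6.65% lower in replicate 2. At an unadjusted p under 0.05 there was 1 member, BCL2L1, against 24.2% of all genes. BCL2L1 had an adjusted p of 0.113 in the exact binomial test in edgeR, the smallest of the 9 members tested, and the largest was that of BCL2 at 1.

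The differences between the libraries were small. On the log2((CPM + 1)/(CPM + 1)) scale, which understates the change of low genes, the 8 members with a mean of at least 1 CPM had a median difference of 0.06, replicate 2 against replicate 1. The same median over 13898 genes was -0.0077. BID had the largest difference of these 8 members, 0.18, with overlapping Wilson intervals in the 2 libraries. The median absolute difference of all genes was 0.10 and their 90th percentile was 0.29, so each of the 8 members lay inside that percentile. Of the 8 members 7 were higher in replicate 2, as were 47.8% of all genes. By TPM summed per gene 4 of the 8 were higher, since MCL1, BAX and BCL2L11 changed sign.

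Levels of different genes were compared per length, as TPM summed over the transcripts of each gene. Of the 83 transcripts that GENCODE 29 gives for the 10 genes, 66 were in the transcript table, and BCL2L11 had the lowest share, 14 of 25. TPM carries no depth, so these values have no counting interval, and the spread between the libraries is the only error. BAX stood at 265 TPM in replicate 1 and 262 TPM in replicate 2, and 96.1% of the 13380 detected genes with a TPM were lower. MCL1 followed at 219.9 and 218 TPM, above 95.2% of those genes. BCL2L1 stood at 73.2 and 78.9 TPM, BAD at 59.3 and 65.6 TPM, and BAK1 at 43.3 TPM in both libraries. These 5 members were all above the median of detected genes, which was 12.4 TPM.

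The lower members were near or under that median. BID stood at 11.3 and 12.2 TPM, above 48.6% of detected genes. BOK stood at 5.98 and 6.84 TPM, and BCL2L11 at 2.80 and 2.53 TPM. BIK stood at 0.417 and 0.681 TPM and BCL2 at 0.157 and 0.159 TPM, the lowest of the members. Between each of the 9 pairs of neighbours in this order of TPM the ranges of the 2 libraries did not overlap.

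The top of that order depended on how length was taken into account. With reads per kilobase of merged exons MCL1 came above BAX, at 565 and 559.9 against 194 and 194 when scaled as TPM is, and BCL2L1 came between them at 229 and 237. With reads per kilobase of the mean transcript length MCL1 was again above BAX, at 294 and 290.1 against 282 and 276. The reads of BCL2L1 exceeded those predicted from its TPM and transcript lengths 2.58-fold in replicate 1 and 2.19-fold in replicate 2, so its level in TPM is uncertain. BCL2 had 2.01-fold and 1.27-fold the predicted reads. Under all 3 measures MCL1, BAX and BCL2L1 filled the first 3 places, BCL2L11 was in place 8, and BIK and BCL2 were in places 9 and 10.

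**Figure D2:**
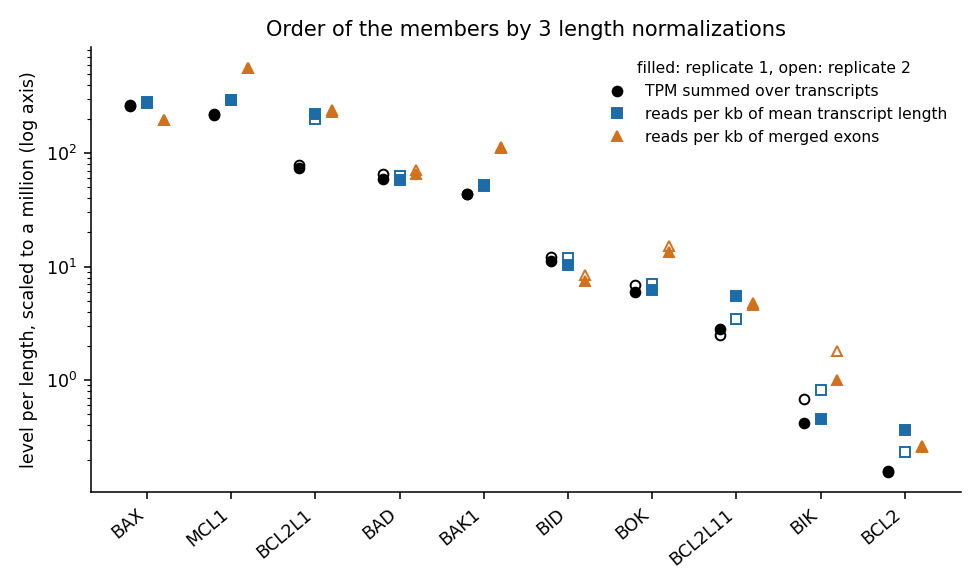
Level per length of the 10 members on a log axis, on a common scale, by summed TPM (circles), reads per kilobase of mean transcript length (squares) and reads per kilobase of merged exons (triangles), with replicate 1 filled and replicate 2 open. BAX is highest by TPM at 265 and 262, MCL1 is highest by both measures from reads, and BIK and BCL2 are lowest by all 3.

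Summed by role, the 3 guardians reached 293 TPM in replicate 1 and 297 TPM in replicate 2, and the 3 effectors 315 and 312 TPM. Guardians made up 43.0% ± 0.0329 (SD, n = 2) of the TPM of the 10 members, effectors 45.7% ± 0.681 and the 4 BH3-only genes 11.3% ± 0.648. The ratio of guardians to effectors was 0.932 and 0.952. With reads per kilobase of merged exons the guardians took 66.5% and the effectors 26.7%, so which class was larger depended on the length measure. BH3-only genes were the smallest class of the 10 genes under each of the 3 length measures.

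Within each class 1 gene supplied most of the TPM. MCL1 made up 75.0% and 73.4% of guardian TPM, BCL2L1 24.9% and 26.6%, and BCL2 0.0534% and 0.0537%. MCL1 was 3.01 and 2.76 times BCL2L1 in TPM, but 1.34 and 1.44 times by reads per kilobase of mean transcript length, where it made up 57.1% and 59.0% of the guardians. BAX made up 84.3% and 83.9% of effector TPM and was 6.13 and 6.05 times BAK1, while BOK made up 1.90% and 2.19%. By reads per kilobase of merged exons BAX was 1.73 and 1.76 times BAK1 and made up 60.7% and 60.8% of the effectors. BAD made up 80.3% and 81.0% of BH3-only TPM, followed by BID with 15.3% and 15.02%, BCL2L11 with 3.79% and 3.12%, and BIK with 0.565% and 0.841%.

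The long form was the main complete form of BCL2L1. Transcripts encoding the 233 residues of BCL-XL, which blocks apoptosis, made up 44.5% of BCL2L1 TPM in replicate 1 and 56.7% in replicate 2. The 170 residues of BCL-XS, which promotes apoptosis, were encoded by BCL2L1-202, with 2.74% and 0.886%. The rest, 52.8% and 42.5%, fell on 6 transcripts whose coding sequence is incomplete in the annotation, so residue counts do not place it. The main transcripts were BCL2L1-201 with 18.7 and 25.7 TPM, BCL2L1-206, an incomplete one, with 18.5 and 14.9 TPM, and BCL2L1-203 with 13.8 and 19.0 TPM.

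Of those incomplete transcripts, all but BCL2L1-206 reach the place of the splice choice. The segment between the donor sites of BCL-XS and BCL-XL is 189 bases at chr20:31721655-31721843, all coding. It holds the BH1 domain and part of the BH2 domain, which help to form the groove for partners. It is printed whole because its presence or absence is the difference between a protein that blocks death and one that promotes it.
BCL2L1 segment: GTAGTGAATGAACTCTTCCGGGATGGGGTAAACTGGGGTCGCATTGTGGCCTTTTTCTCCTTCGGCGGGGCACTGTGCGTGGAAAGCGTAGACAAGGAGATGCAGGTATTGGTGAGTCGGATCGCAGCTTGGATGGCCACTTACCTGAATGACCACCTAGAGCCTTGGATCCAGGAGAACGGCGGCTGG
Of the TPM of transcripts that overlap the segment or splice past it, 3.66% in replicate 1 and 1.09% in replicate 2 lacked it. Over complete coding transcripts alone it was 5.80% and 1.54%. The segment begins at coding base 376. BCL2L1-204, BCL2L1-205 and BCL2L1-209, with 564 coding bases, and BCL2L1-207, with 543, end at or inside it. These incomplete models could only be counted as carrying it, so the lower share does not show a splice choice in them. BCL2L1-206, which does not reach the segment, held 25.3% and 18.9% of BCL2L1 TPM. The share without the segment was higher in replicate 1, and 2 libraries of 1 group allow no test of that difference.

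Factors known to act on this splice choice were all present: 11 of 11 were at 1 CPM or more in both libraries, a threshold met by 61.7% of protein-coding genes. Of these 3 were called between the libraries, all lower in replicate 2, against 6.65% of all genes tested called lower. HNRNPA1, which favours the BCL-XS site and has many processed copies in the genome that make its reads uncertain, stood at 3234 CPM in replicate 1 and 2860.3 CPM in replicate 2. PTBP1, a pyrimidine-tract binder, stood at 826 and 769.9 CPM, and SF3B1, a core component of branch point recognition, at 530.3 and 506 CPM. Their adjusted p in the exact binomial test in edgeR was 2.2e-107, 8.7e-09 and 0.0083. The lowest of the list in TPM was RBM11, at 1.95 and 3.32 TPM. The median log2 difference of the list was -0.02, beside -0.0077 over all genes.

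MCL1 was made almost wholly in its long form. MCL1-202, which encodes the 350 residues of the guardian MCL-1L, held 94.2% and 94.5% of the gene's TPM. MCL1-201, which encodes the 271 residues of MCL-1S, held 2.63% and 1.90%, and the noncoding MCL1-203 held 2.02% and 1.57%. MCL1-204, which encodes the 197 residues of MCL-1ES, held 1.18% and 2.01%. Each short form was under 3% in both libraries, and their order was not the same in the 2 libraries.

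The exon that MCL-1S lacks is exon 2, 248 bases at chr1:150578244-150578491, and its length is not a multiple of 3, so skipping it changes the reading frame of what follows. MCL-1S is known to lack BH1, BH2 and the membrane anchor and to keep BH3. The exon is shown whole as the piece that separates a guardian from a BH3-only protein.
MCL1 exon 2: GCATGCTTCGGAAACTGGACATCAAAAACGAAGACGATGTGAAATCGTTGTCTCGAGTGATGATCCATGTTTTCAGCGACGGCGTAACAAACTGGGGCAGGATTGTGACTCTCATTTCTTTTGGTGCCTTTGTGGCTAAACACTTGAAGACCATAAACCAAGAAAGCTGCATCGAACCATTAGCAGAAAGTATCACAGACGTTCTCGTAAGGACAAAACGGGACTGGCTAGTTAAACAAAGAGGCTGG
The part that MCL-1ES lacks is a different stretch, 459 coding bases of exon 1 at chr1:150578964-150579422. It was missing from 1.20% and 2.04% of the TPM that spans it.

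BAX was mostly BAX alpha. BAX-202, which encodes its 192 residues, held 73.1% and 72.9% of the gene's TPM. BAX-201, which encodes the 218 residues of BAX beta with a different C-terminus, held 9.91% and 11.8%. BAX-212, a transcript annotated as a substrate of nonsense-mediated decay, held 6.15% and 3.03%. BAX-203, which encodes the 143 residues of BAX delta, held 2.46% and 2.94%. The alpha share differed by less than 1 percentage point between the libraries, whereas BAX-212 had the wider spread, with 16.3 and 7.91 TPM.

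Exon 3 of BAX, 147 bases at chr19:48955687-48955833, holds the BH3 domain and is the exon that BAX delta lacks. It is printed because an effector without it keeps its reading frame, since the length is a multiple of 3, but has no BH3 domain.
BAX exon 3: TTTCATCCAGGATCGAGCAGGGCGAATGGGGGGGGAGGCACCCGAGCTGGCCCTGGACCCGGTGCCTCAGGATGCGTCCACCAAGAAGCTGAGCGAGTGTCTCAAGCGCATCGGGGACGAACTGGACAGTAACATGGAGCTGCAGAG
It was missing from 5.19% and 6.74% of the TPM of transcripts that overlap it or splice past it, a mean of 5.96%. Weighted by transcript length the mean was 2.97%, and over complete coding transcripts 3.11%. Intron 5, 617 bases at chr19:48960915-48961531, was kept in 11.2% and 12.4%. Whether the RNA with the intron was fully processed was not tested.

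**Figure D3:**
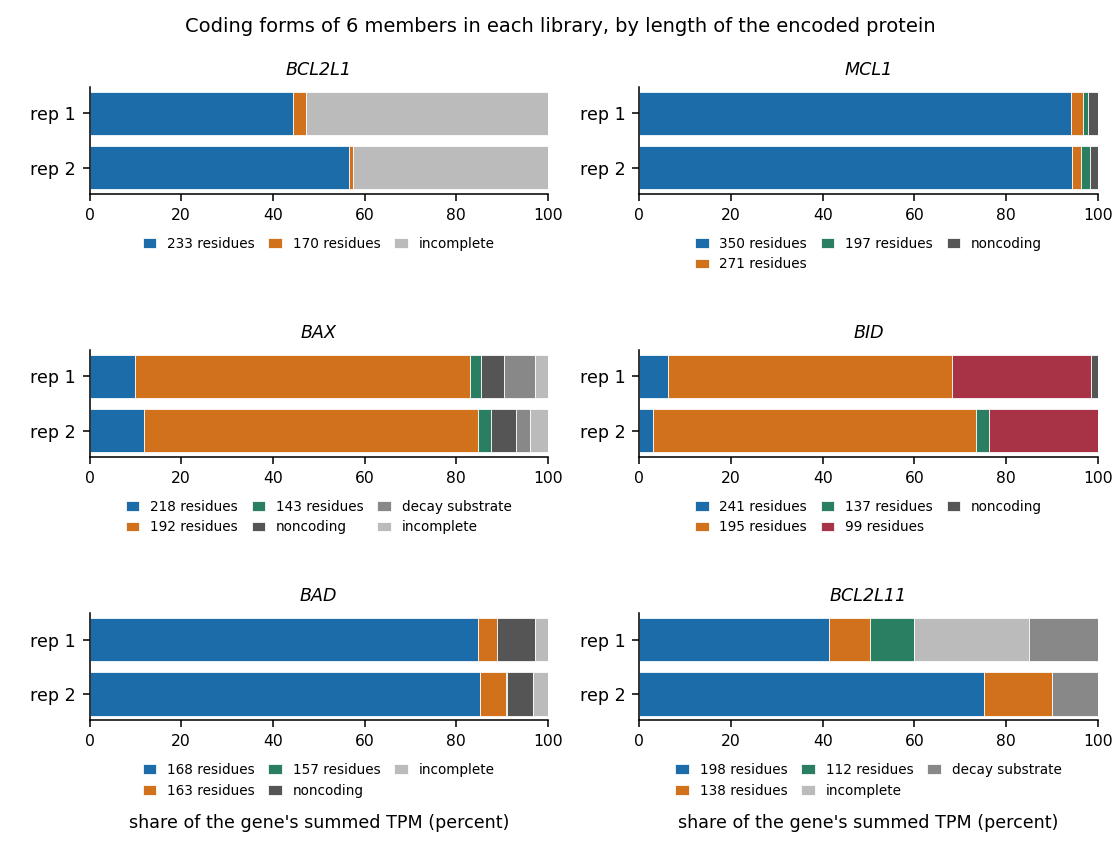
Share of each gene's summed TPM by the length of the encoded protein, for 6 members in replicate 1 and replicate 2, with transcripts of incomplete or no coding sequence and decay substrates in grey. The 350-residue form fills 94.2% and 94.5% of MCL1, whereas BCL2L1 has 52.8% and 42.5% on incomplete transcripts and BCL2L11 differs most between the libraries.

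BAK1, BOK and BIK were each nearly or wholly on 1 form, and for BIK the annotation holds only 1 transcript. BAK1-202, which encodes 211 residues, held 100% of the TPM in replicate 1 and 99.6% in replicate 2, where BAK1-203, with 153 residues, held 0.371%. BOK-201, with 212 residues, and BIK-201, with 160 residues, held 100% in both libraries. BCL2, at its very low level, had 70.2% and 69.4% on transcripts for the 239 residues of BCL2 alpha and 29.8% and 30.6% on BCL2-203 for 205 residues. The reads of BCL2-201 and BCL2-202, both of 239 residues, were divided differently: BCL2-201 held 70.2% and 16.95%, while BCL2-202 was listed at 0 in replicate 1 and held 52.5% in replicate 2.

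Of the BH3-only genes, BAD was made as 1 main form. Transcripts for 168 residues held 84.9% and 85.2% of its TPM, mostly BAD-201 with 83.4% and 83.7%. BAD-206, an intron-retaining transcript without a coding sequence, held 8.42% and 5.57%, and BAD-202, with 163 residues, 3.98% and 5.56%. BID had 61.9% and 70.5% on transcripts for the full 195 residues, namely BID-209 with 48.2% and 47.8% and BID-215 with 13.7% and 22.8%. A further 30.4% and 23.6% of its TPM encoded 99 residues, mainly BID-204 with 23.2% and 16.5%. Among the transcripts listed, this shorter BID was the largest alternative complete coding form of any of the 8 detected members in both libraries. Only 11 of the 15 annotated BID transcripts were listed, and the gene rests on 208 and 219 reads, so these shares are imprecise.

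BCL2L11 had the widest spread between the libraries of the 8 detected members. BCL2L11-206, for the 198 residues of BIM-EL, held 41.4% of its TPM in replicate 1 and 75.2% in replicate 2. BCL2L11-201, for the 138 residues of BIM-L, held 8.95% and 14.9%. BCL2L11-205, incomplete in the annotation, held 25.1% in replicate 1 and was listed at 0 in replicate 2, as was the form of 112 residues after 9.52% in replicate 1. The gene rests on 193 and 186 reads, and 11 of its 25 annotated transcripts were not in the table, so its shares are the least precise of the detected members.

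Grouping the BCL2L11 transcripts by 1 stretch of sequence narrowed that spread when every transcript was counted. The stretch is 180 coding bases at chr2:111123870-111124049, which BIM-EL keeps and BIM-L splices out. It starts with GT and ends with AG, and BCL2L11-206 has 4 exons against 5 in BCL2L11-201. It is therefore part of an exon of BIM-EL, though labelled the EL exon here. The stretch holds the sites at which ERK phosphorylates BIM-EL and marks it for destruction. It is printed whole since it alone separates the EL and L forms.
BCL2L11 EL exon: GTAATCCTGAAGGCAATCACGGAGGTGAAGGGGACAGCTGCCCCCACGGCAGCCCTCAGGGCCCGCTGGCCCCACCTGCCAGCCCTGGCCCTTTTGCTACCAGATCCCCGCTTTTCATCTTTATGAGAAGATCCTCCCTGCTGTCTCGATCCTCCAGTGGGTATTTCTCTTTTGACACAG
The stretch was missing from 29.4% of BCL2L11 TPM in replicate 1 and 24.8% in replicate 2. Counted as having it was BCL2L11-205, an incomplete model that ends inside it, at 0.704 TPM in replicate 1 and 0 in replicate 2. Over complete coding transcripts the share without the stretch was 30.9% and 16.5%, a wider spread. Over transcripts of at least 0.1 TPM in both libraries the mean share was 17.2%, so its size depends on which transcripts are counted. BIM with the stretch was the larger part in both libraries in each case.

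**Figure D4:**
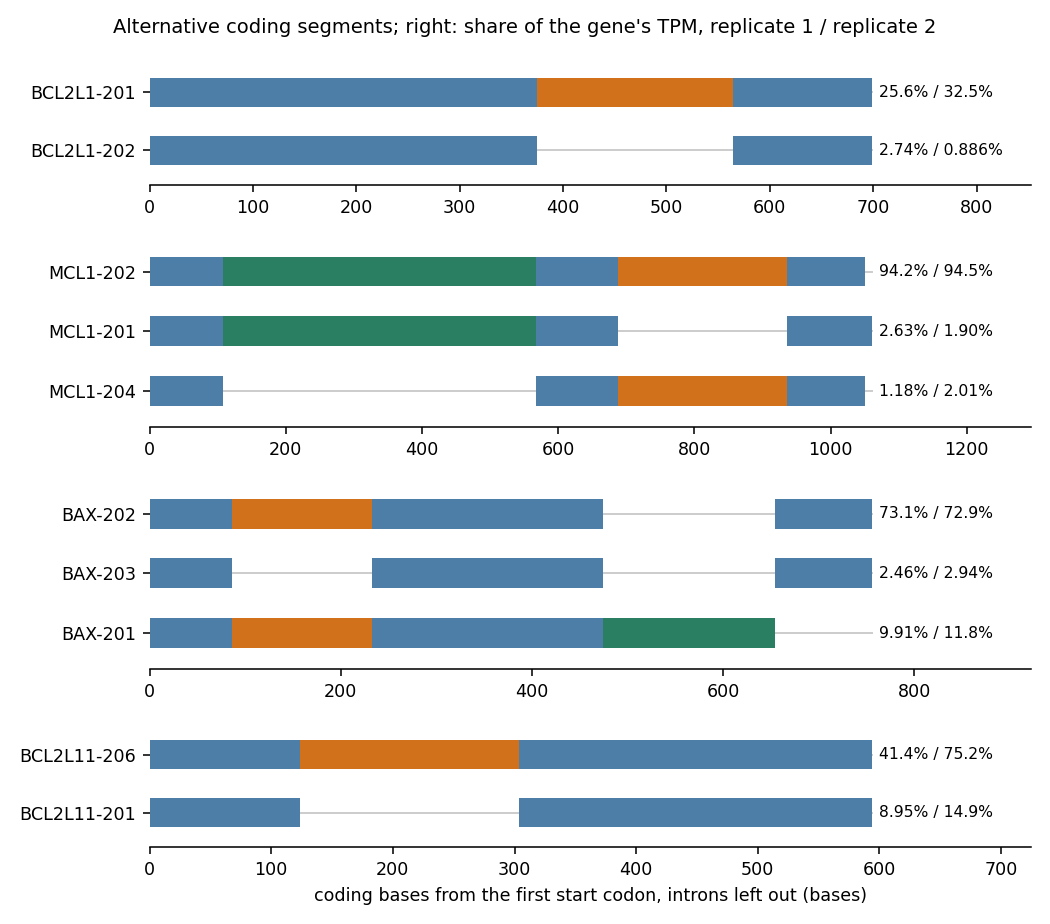
Coding pieces of the compared transcripts of BCL2L1, MCL1, BAX and BCL2L11, drawn to scale in coding bases from the first start codon with introns left out; orange and green are the alternative pieces, and the numbers at the right are each transcript's share of its gene's TPM in replicate 1 and replicate 2. The transcripts lacking the orange piece hold small shares in BCL2L1 (2.74% and 0.886%) and MCL1 (2.63% and 1.90%) and a larger one in BCL2L11 (8.95% and 14.9%).

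Of 11 other family genes, 7 were at 1 CPM or more in both libraries, against 61.7% of protein-coding genes. PMAIP1, which encodes NOXA, a BH3-only protein that binds MCL1 and leads to its destruction, was the only one called between the libraries, of 8 tested and against 13.1% of all genes. It stood at 107 CPM in replicate 1 and 97.5 CPM in replicate 2, with an adjusted p of 0.024 in the exact binomial test in edgeR. In TPM it stood at 108 and 92.5, which was 1.82 and 1.41 times BAD, so it was above all 4 BH3-only members. BBC3, which encodes the BH3-only protein PUMA, stood at 29.6 and 34.1 TPM. BCL2L2, a further guardian, stood at 10.0 and 10.8 TPM, with 19.4% of its exons shared with another gene on the same strand, and MCL1 was 22.0 and 20.1 times that. BCL2A1, a guardian of blood cells, had no read, and BCL2L10, a guardian known from oocytes, had 13 and 21 reads. With the 7 other genes of known role added, BH3-only genes took 25.8% of the TPM and guardians 36.7%.

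Downstream of the pore, 16 of 17 genes of the apoptosome and the caspases were at 1 CPM or more in both libraries, against 61.7% of protein-coding genes, and 1 of them was called, against 13.1% of all genes tested. That gene, CYCS, which encodes cytochrome c, was higher in replicate 2, at 452 and 494 CPM with an adjusted p of 7.1e-10 in the exact binomial test in edgeR. It was also the highest of the list in TPM, at 403 and 418. The initiator caspase CASP9 stood at 7.05 and 9.32 TPM and its scaffold APAF1 at 5.43 and 4.22 TPM, and neither was called. BIRC3, an inhibitor of apoptosis, was not detected, with 7 and 4 reads. Of DIABLO, an antagonist of such inhibitors, the level is uncertain, with 1.86 and 2.25 CPM but 87.5 and 94.2 TPM, and 29.6% of its exons are shared with another gene on the same strand.

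Genes that set the turnover of MCL1 and BIM were all detected, 6 of 6, against 61.7% of protein-coding genes. Of these 3 were called, all lower in replicate 2, against 6.65% of all genes tested called lower. HUWE1, a ubiquitin ligase for MCL1, stood at 477 CPM in replicate 1 and 365 CPM in replicate 2, with an adjusted p of 3.0e-71 in the exact binomial test in edgeR. USP9X, which removes ubiquitin from MCL1, stood at 162 and 138 CPM, and GSK3B, a kinase that marks MCL1 for destruction, at 114 and 105 CPM. GSK3B was called at an adjusted p of 0.044 in the exact binomial test in edgeR, and at 0.074 when all genes with a read were tested it was not. The median log2 difference of the 6 genes was -0.07, beside -0.0077 over all genes. MCL1 RNA itself stood at 639 and 639.9 CPM in the same libraries.

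**Figure D5:**
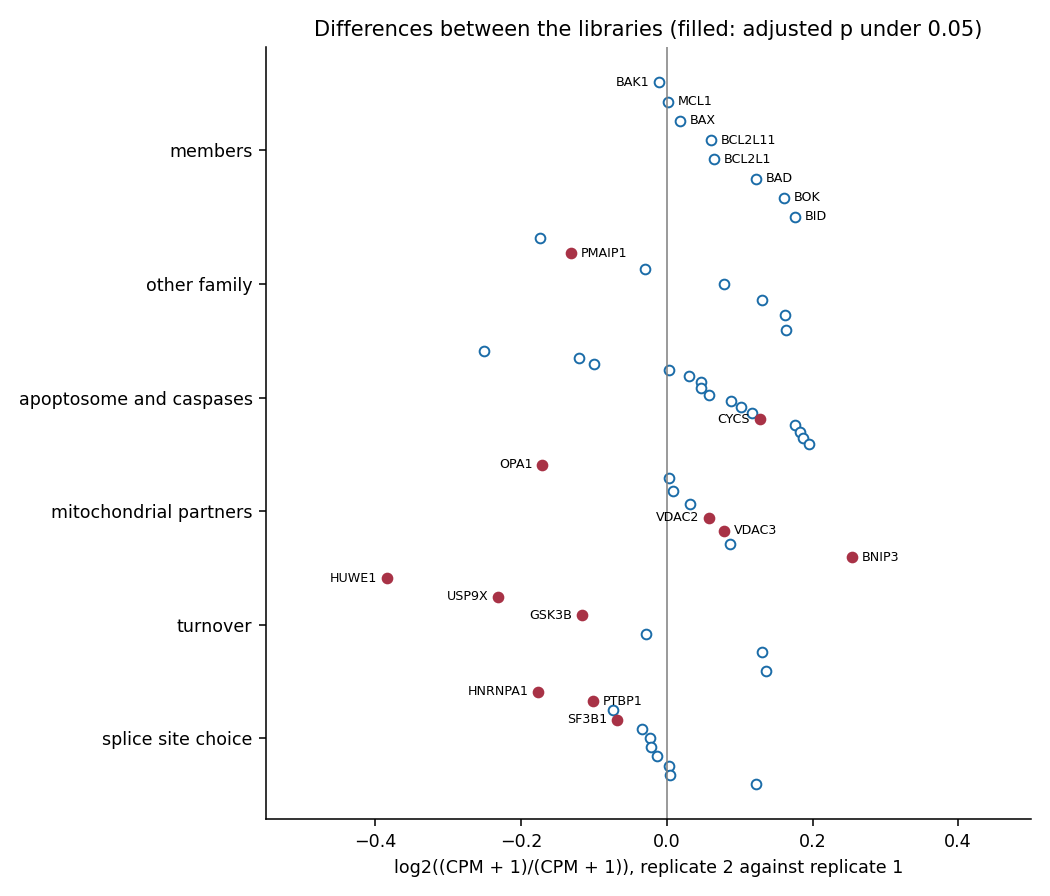
Difference between the libraries for the detected genes of 6 lists, as log2((CPM + 1)/(CPM + 1)), replicate 2 against replicate 1, with filled points for an adjusted p under 0.05 in edgeR's exact binomial test. The 8 members lie between -0.01 and 0.18 and none is filled, while HUWE1 is the lowest point and BNIP3 the highest.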

How the data were processed

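Polyadenylated RNA of TCam-2 cells was measured in 2 libraries of 1 group, with replicate numbers taken from the labels. Per the submitters' processing notes, the authors used Trim Galore 0.6.10, STAR 2.7.11a, Salmon 1.10.2 and DESeq2 with GRCh38. The Salmon index and the annotation for counting are not given in the sources used here. The deposited signal per gene equals reads scaled by a factor of each library. All values above 0 (100%, within 0.01 reads) were whole multiples of 1.02 in replicate 1 and 1.12 in replicate 2, and division by these gave whole reads. The authors' other table holds TPM per transcript. It lists 251955 transcripts, of which 201667 were found in GENCODE 29 and carried 94.8% of the TPM in each library. Columns of per-sample values left unused numbered 0.

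CPM were taken over all reads in genes, with 95% Wilson intervals. Libraries were compared with edgeR 4.0.16 binomTest (R 4.3.3) on the recovered reads, after TMM and filterByExpr, at an adjusted p under 0.05. The calculation was tested on simulated data. A form is the set of transcripts of 1 gene with the same coding length. For splice shares, a transcript counted as with a segment if any exon overlapped it, even in part. It counted as without the segment only if neighbouring exons lay on both sides. Reads were predicted from TPM times transcript length. Alternatives covered scaling (raw totals, DESeq2 1.42.0 factors), filters, the pseudocount of 1 CPM, the detection threshold of 1 CPM, length measures, the transcripts counted and each library alone.

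The rule named all 10 members, the top 3 transcripts of each, forms with at least 5% of a gene's TPM in both libraries, and from the other lists reported the genes at either end and those called. MCL1-204, BAX-203, BCL2L1-202 and the other genes given for their role were named outside it, after their values were seen. The members, lists and splice segments were chosen with earlier results of these data known. Some genes and 1 list of pathway genes are not reported here.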

Additional observations from a re-analysis of the deposited data

How the results depend on the processing

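No paired analysis was possible because there is 1 group and nothing to pair it with. In all alternatives run, 0 members were called between the libraries, and the smallest adjusted p of the exact binomial test in edgeR, that of BCL2L1, ranged from 0.113 to 0.184. With reads per kilobase of merged exons, guardians took 66.5%, effectors 26.7% and BH3-only genes 6.87% of the level of the members. With reads per kilobase of mean transcript length, an alternative added after seeing the data, the shares were 54.8%, 36.8% and 8.36%. With the other family genes they were 36.7%, 37.5% and 25.8%. With coding transcripts only the guardian share was 43.9%. Weighted by transcript length, the share of MCL1 without exon 2 was 0.661%, of BAX with intron 5 18.8% and of BCL2L11 without the EL exon 9.18%. The last was 17.2% over transcripts of at least 0.1 TPM and 23.7% over complete coding transcripts, the other alternative added after seeing the data. Each library alone gave guardians 43.0% to 43.1%, effectors 45.2% to 46.2%, BH3-only genes 10.8% to 11.7%, BCL2L1 without the segment 1.09% to 3.66%, MCL1 without exon 2 1.90% to 2.63%, BAX with intron 5 11.2% to 12.4% and BCL2L11 without the EL exon 24.8% to 29.4%. Of 30 alternatives for single-gene differences 3 changed sign, those of MCL1, BAX and BCL2L11 in TPM. Depth limits BCL2 and BIK, with 6 to 19 reads.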

Other observations

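Partners of the family at the mitochondrion were all at 1 CPM or more in both libraries, 8 of 8, against 61.7% of protein-coding genes, and 4 were called between them, against 13.1% of all genes tested. BNIP3, a BH3-like protein of hypoxia and mitophagy, was higher in replicate 2, at 66.8 and 79.8 CPM, with an adjusted p of 5.0e-06 in the exact binomial test in edgeR. OPA1, which holds the folds of the inner membrane, was lower, at 129 and 114 CPM, with an adjusted p of 3.2e-04 in the same exact test in edgeR. VDAC2, a channel of the outer membrane that recruits BAX and BAK1, stood at 410.5 and 427 CPM, and VDAC3, a channel of the same family, at 197 and 208 CPM. Their adjusted p was 0.026 and 0.040 in the exact binomial test in edgeR. With DESeq2 size factors it was 0.053 and 0.065 in that test, so both calls were lost there. VDAC2 stayed called in the same test with raw totals (0.045) and with all genes with a read (0.044). VDAC3 was called in neither of those settings (0.058 and 0.067). VDAC2 was also the highest of the list in TPM, at 522 and 535, and OPA1 the lowest, at 44.2 and 45.3. The median log2 difference of the 8 genes was 0.04, beside -0.0077 over all genes.

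Several genes of the lists had reads in CPM that their TPM did not follow, and not all are named here. USP9X stood at 162 and 138 CPM but at 1.13 and 1.16 TPM. The marker KIT stood at 67.7 and 68.1 CPM but at 3.37 and 5.08 TPM, and for DIABLO the difference went the other way. The levels per length of these genes are uncertain, and the cause was not tested.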
